A study of Malus domestica with 18 samples.

Results

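The aging course of apple seeds was followed in embryonic axes (Malus domestica Borkh.) whose embryos had been exposed to nitric oxide (NO). Axes of this kind made up 9 of the 18 samples of the series, namely every sample labelled NO 7d, NO 14d or NO 21d, with 3 biological replicates at each time. Seeds were kept on wet sand at 33 °C for 7, 14 or 21 days, and only then were the embryos isolated, held for 3 h in vapours of acidified nitrite (14.5 mM NaNO2 in 0.2 M HCl, which gives off NO), rinsed and cultured on wet filter paper for 48 h before RNA was taken from the axes. Control axes went through the same aging and culture without NO, again with 3 samples at each time. NO was therefore applied after aging, never during it, and no sample came from seeds that had not been aged. Transcript levels of 18 target genes and 2 reference genes, Sar1 and Pdi, were measured by RT-qPCR, in which the quantification cycle (Cq) is lower when more template is present. Cq ran from 19.8 to 30.4 cycles in NO-treated axes. None of the 20 genes is a marker of the axis, so the labelled tissue could not be checked, and changes in the make-up of the axis and changes in transcripts per cell cannot be told apart.

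Seeds that survive drying carry several layers of protein protection, which the targets sample. Late embryogenesis abundant (Lea) proteins shield cell structures in the dry state. Heat shock proteins (Hsp) keep proteins soluble or help them fold, small Hsp by holding unfolded proteins, Hsp70 and Hsp90 by cycles of binding driven by ATP, Clp proteins of the Hsp100 family by pulling aggregates apart, and chaperonins (Cpn60) by folding proteins inside a closed chamber. Pimt, protein L-isoaspartyl methyltransferase, repairs aspartyl residues that go wrong as proteins age. Tor is a kinase that promotes growth and holds back autophagy, Raptor is the subunit that presents substrates to it, and Saur belongs to the small auxin up RNA genes, which respond to auxin.

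Each transcript is defined here by its primer pair. The study listed a pair for all 20 genes, against 1 to 5 gene IDs per pair, so that a signal can combine near-identical copies, and 1 of the 20 genes, Pdi, could be matched to a RefSeq entry. Pairs are given for the 3 Hsp70 genes, whose courses parted from each other, for Tor and Raptor, which moved in opposite directions, and for Pimt, whose course with NO ran against that without NO. Sequences are written from the 5′ end to the 3′ end.
Hsp70a forward: ttgtcgggtcagggtctag
Hsp70a reverse: agcattgcacattgaagagcg
Hsp70b forward: atcaccaacgacaagggca
Hsp70b reverse: ctttgcctccaccttcttct
Hsp70c forward: caatgatgctcagagacagg
Hsp70c reverse: accaccaagatcaaatacagc
Tor forward: atctggtggagcagctttgc
Tor reverse: tcgttataccgttctgcatcac
Raptor forward: tgaatgctgttgtggattgg
Raptor reverse: gctacaatctgatgaagaagg
Pimt forward: gatggtggatcatttgaagag
Pimt reverse: ctatcaatagtctccatcacttcag
The Hsp70a pair was listed with 5 gene IDs, the Hsp70b and Hsp70c pairs with 1 each, the Tor and Raptor pairs with 3 each and the Pimt pair with 2.

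Levels were taken as the mean Cq of Sar1 and Pdi minus the target Cq, a log2 scale at 1 doubling per cycle, and are printed as relative levels with the mean of the 7-day NO-treated axes set to 1. Days were compared with limma, with Benjamini-Hochberg adjustment across the 18 genes of each comparison and a threshold of 0.05. Changes below are log2 changes of the later over the earlier day with their standard error (SE). With 3 samples against 3, an exact permutation test of a single gene cannot give a p below 0.1. The cycles of the reference genes themselves moved with aging. In NO-treated axes minus their mean Cq changed by -0.81 (SE 0.10, unadjusted p = 8.7e-08, limma) at 14 against 7 days, with -0.44 for Sar1 and -1.19 for Pdi, and by -0.68 (SE 0.10, unadjusted p = 1.1e-06) at 21 against 7 days. At 21 against 14 days it differed by 0.13 (SE 0.10, unadjusted p = 0.19). Comparisons with day 7 therefore depend on the normalizer far more than that of days 21 and 14, and directions are given with the normalizers under which they turned.

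In NO-treated axes most of the panel moved at each step of aging. Between 7 and 14 days 4 genes rose and 8 fell, which is 66.7% of the 18 genes called. Between 14 and 21 days 6 rose and 11 fell (94.4% called), and over the whole course, 21 against 7 days, 4 were higher and 10 lower (77.8% called). The median change of the 18 genes was -0.18, -0.73 and -0.50 in these comparisons. The 3 samples of the later day lay wholly above those of the earlier day for 6 genes and wholly below for 8 at 14 against 7 days, for 6 and 11 at 21 against 14 days, and for 3 and 10 at 21 against 7 days.

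Courses fell into few shapes, as the plot of levels by sample shows. Tor, Saur, Pimt, Cpn60a and Cpn60b (5 genes) fell to a minimum at 14 days and then rose. Raptor, Hsp90, Hsp70a and Hsp20b (4 genes) peaked at 14 days. ClpB4, Hsp70b and Hsp70c (3 genes) fell at both steps. Lea1, Lea4, ClpB1 and Hsp20a (4 genes) were not called between 7 and 14 days with both reference genes and fell afterwards. Lea2b was called in the second step alone, as a rise, and Lea2a at neither step. Both steps use the same 14-day samples, and the first step of Hsp20b and ClpB4 and the second of Hsp90 changed direction with the normalizer, as given with those genes. The first step of the Lea genes, ClpB1 and Hsp20a was called under some of the other normalizers, also given there.

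**Figure D1:**
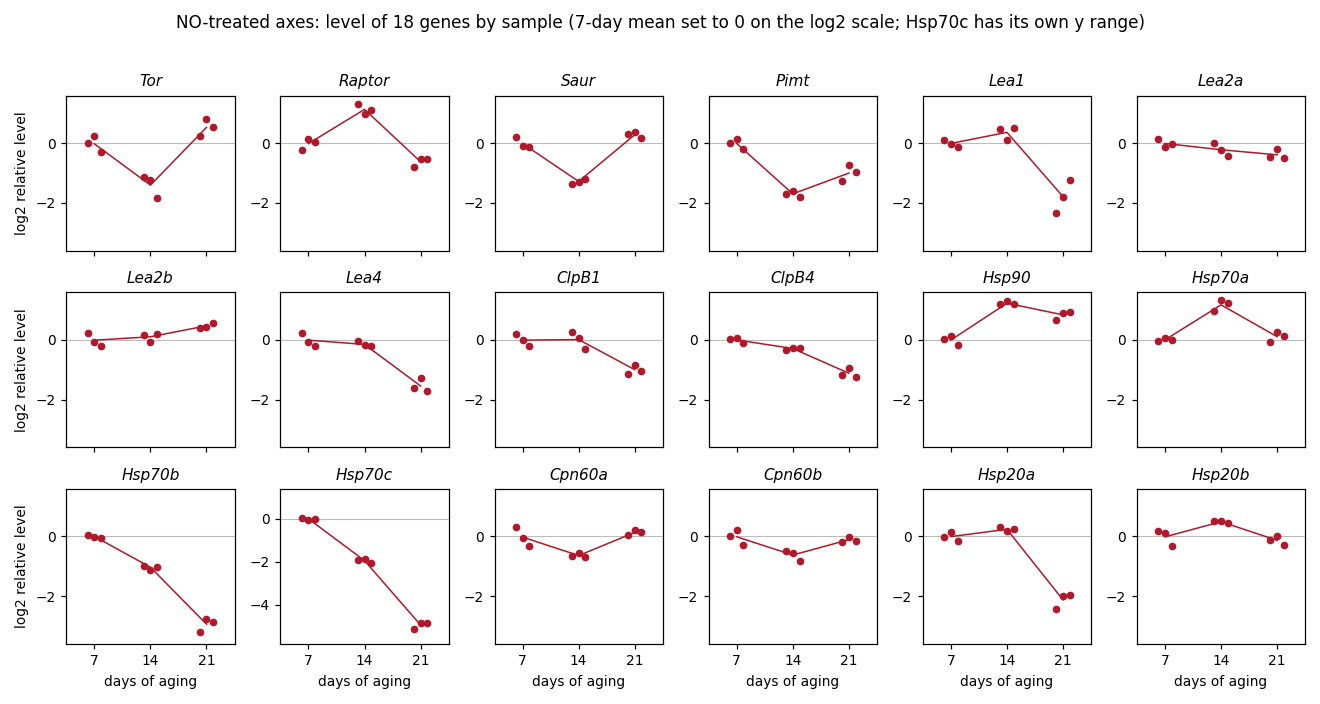
Log2 relative level (y axis, log2 scale) of 18 genes in each NO-treated sample against days of aging (x axis), with 3 points a day and a line through the day means, and the 7-day mean at 0. Hsp70c, on its own y range, changes by -4.93 over the course, and Tor and Raptor turn in opposite directions at 14 days.

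The Tor pair showed opposed courses. The relative level of Tor was 1.02, 1.17 and 0.809 in the 7-day samples, 0.452, 0.423 and 0.284 in the 14-day samples and 1.18, 1.78 and 1.45 in the 21-day samples. All 14-day samples lay below all others, and every 21-day sample was above every 7-day sample by a small margin. Tor fell by 1.38 (SE 0.18, adjusted p = 5.8e-08) at 14 against 7 days and rose by 1.94 (SE 0.18, adjusted p = 7.9e-11) at 21 against 14 days. On linear levels the fall of Tor at 14 against 7 days was not called (limma, adjusted p = 0.12). The net change of Tor at 21 against 7 days was 0.55 (SE 0.18, adjusted p = 0.0071), and that small rise turned to -0.13 without a reference gene. The net rise was not called with Sar1 alone (0.22, limma, adjusted p = 0.30) or on linear levels (limma, adjusted p = 0.23). The relative level of Raptor was 0.863, 1.11 and 1.03 at 7 days, 2.47, 1.99 and 2.17 at 14 days and 0.571, 0.691 and 0.699 at 21 days. Its 14-day samples were the highest and its 21-day samples the lowest, with no overlap between days. Raptor rose by 1.15 (SE 0.15, adjusted p = 4.4e-08) and then fell by 1.76 (SE 0.15, adjusted p = 7.5e-12). Its change at 21 against 7 days was -0.61 (SE 0.15, adjusted p = 0.00046), which turned to 0.23 when samples were centred on the 18 targets. This net fall was not called with Pdi alone (-0.28, limma, adjusted p = 0.11) or on linear levels (limma, adjusted p = 0.21). The methods' test across days, whose values are given below, called the net change of neither gene. Because the ratio of both transcripts within a sample needs no reference gene, it was computed too, as 1 of 16 pairs of genes of the same group. The log2 ratio of Tor over Raptor was -2.28 ± 0.30 (SD, n = 3) at 7 days, -4.82 ± 0.36 at 14 days and -1.12 ± 0.18 at 21 days, without overlap between any 2 days. Separation was usual among the 16 pairs, of which 12, 13 and 13 did not overlap at 14 against 7, 21 against 14 and 21 against 7 days. The Tor pair was singled out after its values were seen, and only the change of the ratio can be read, since its absolute value also depends on the primers.

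Saur followed Tor rather than Raptor. Its relative level was 1.15, 0.931 and 0.922 at 7 days, 0.39, 0.411 and 0.438 at 14 days and 1.24, 1.3 and 1.14 at 21 days. The 14-day samples lay clearly below the rest, while 7-day and 21-day samples overlapped. The fall at 14 against 7 days was 1.27 (SE 0.13, adjusted p = 1.2e-09) and the rise at 21 against 14 days 1.57 (SE 0.13, adjusted p = 7.5e-12). The net change of 0.30 (SE 0.13, adjusted p = 0.041) turned to -0.035 with Sar1 alone and to -0.39 without a reference gene, and was not called in a fit of the NO-treated samples only (adjusted p = 0.079).

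Pimt, the repair methyltransferase, had a relative level of 1.02, 1.1 and 0.884 at 7 days, 0.31, 0.328 and 0.29 at 14 days and 0.413, 0.599 and 0.508 at 21 days. The samples of the 3 days were separate, with the lowest values at 14 days and a partial return by 21 days. It fell by 1.69 (SE 0.14, adjusted p = 9.6e-12), rose by 0.70 (SE 0.14, adjusted p = 2.8e-05) and ended 0.99 (SE 0.14, adjusted p = 1.8e-07) below its 7-day level. When samples were centred on the 18 targets, the net difference was -0.15 with an adjusted p of 0.10. The rise at 21 against 14 days was not called by the methods' test across days, whose values are given below.

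Of the 4 Lea genes, none passed the test at 14 against 7 days, and 1 rose and 2 fell at 21 against 14 days. In the whole panel 12 of the 18 genes were called in the first step, and 6 rose and 11 fell in the second. The median change of the Lea genes was -0.013 in the first step and -0.78 in the second, against -0.18 and -0.73 over all 18 genes. The first-step result depended on the normalizer, since Lea1 (0.75 and 0.62) and Lea2b (0.49 and 0.36) were called higher with Pdi alone and with centring, and Lea2a (-0.59 and -1.02) and Lea4 (-0.52 and -0.96) lower with Sar1 alone and without any reference gene. Lea1 was also called higher in a fit of the NO-treated samples only (0.37, adjusted p = 0.029). Lea1 had relative levels of 1.08, 0.994 and 0.925 at 7 days, 1.39, 1.09 and 1.43 at 14 days and 0.197, 0.29 and 0.426 at 21 days. The 3 samples of day 21 were far below all others, and those of day 14 lay just above those of day 7. Lea1 changed by -2.16 (SE 0.24, adjusted p = 2.8e-09) at 21 against 14 days and by -1.78 (SE 0.24, adjusted p = 1.5e-07) at 21 against 7 days. Lea4 had relative levels of 1.17, 0.96 and 0.873 at 7 days, 0.965, 0.877 and 0.859 at 14 days and 0.323, 0.409 and 0.303 at 21 days. Samples of the first 2 days overlapped, and every 21-day sample was lower. Its changes were -1.39 (SE 0.14, adjusted p = 7.1e-10) at 21 against 14 days and -1.54 (SE 0.14, adjusted p = 1.5e-10) at 21 against 7 days.

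Both Lea2 genes moved little. Lea2b ranged from 0.869 to 1.17 at 7 days, from 0.962 to 1.15 at 14 days and from 1.33 to 1.5 at 21 days. It was the only Lea gene to rise, by 0.37 (SE 0.14, adjusted p = 0.017) at 21 against 14 days and by 0.48 (SE 0.14, adjusted p = 0.0037) at 21 against 7 days, and this net rise turned to -0.20 without a reference gene. Lea2a ranged from 0.923 to 1.1 at 7 days, from 0.737 to 1.0 at 14 days and from 0.708 to 0.873 at 21 days. It passed the test at 21 against 7 days alone, with a change of -0.38 (SE 0.17, adjusted p = 0.042) that turned to 0.46 when samples were centred on the 18 targets. Within samples, the log2 ratio of Lea2b over Lea4 was -5.85 ± 0.0054 (SD, n = 3) at 7 days, -5.60 ± 0.15 at 14 days and -3.84 ± 0.30 at 21 days, so that the balance of both transcripts moved mostly in the last week of aging whatever the normalizer.

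The Hsp100 genes ClpB1 and ClpB4 both fell in the last week. ClpB1 had relative levels of 1.14, 0.989 and 0.874 at 7 days, 1.2, 1.04 and 0.811 at 14 days and 0.457, 0.561 and 0.488 at 21 days. The first 2 days overlapped fully, and the third lay below both. The change of ClpB1 was 0.02 (SE 0.14, adjusted p = 0.91) at 14 against 7 days, -1.01 (SE 0.14, adjusted p = 2.8e-07) at 21 against 14 days and -0.99 (SE 0.14, adjusted p = 4.7e-07) at 21 against 7 days. Its first step was called higher with Pdi alone (0.39, adjusted p = 0.020) and with centring (0.26, adjusted p = 0.048). Without any reference gene that step was called lower (-0.80, adjusted p = 6.5e-06). ClpB4 had relative levels of 1.01, 1.05 and 0.932 at 7 days, 0.795, 0.825 and 0.833 at 14 days and 0.438, 0.525 and 0.424 at 21 days. Its samples stepped down without overlap. The first step was small, at -0.29 (SE 0.13, adjusted p = 0.0494), turned to 0.087 with Pdi alone. It lost its call on leaving out any 1 of 12 of the 18 samples, with an adjusted p of 0.055 to 0.14, and held it without NO 7d replicate 3, NO 21d replicate 1 or 2, Control 7d replicate 1 or 2, or Control 14d replicate 3. The later fall of ClpB4 was 0.83 (SE 0.13, adjusted p = 1.1e-06) at 21 against 14 days, with a change of -1.12 (SE 0.13, adjusted p = 9.6e-09) at 21 against 7 days.

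The group of Hsp90 and Hsp70 genes split in the first week after day 7, with 2 that rose and 2 that fell, and all 4 fell at 21 against 14 days, although Hsp90 turned when samples were centred on the 18 targets. Over all 18 genes 12 were called in the first step, and 17 in the second, 11 of them lower. The median change of the group was 0.070 in the first step and -1.49 in the second, against -0.18 and -0.73 over all 18 genes. Hsp90 had relative levels of 1.03, 1.08 and 0.886 at 7 days, 2.29, 2.44 and 2.3 at 14 days and 1.6, 1.87 and 1.91 at 21 days. All 14-day samples were the highest, and the 21-day samples stayed above those of day 7. Hsp90 rose by 1.23 (SE 0.13, adjusted p = 1.2e-09), fell by 0.39 (SE 0.13, adjusted p = 0.0054), a fall that turned to 0.21 when samples were centred on the 18 targets, and at 21 days was 0.84 (SE 0.13, adjusted p = 7.7e-07) above day 7. Hsp70a had relative levels of 0.966, 1.03 and 1.0 at 7 days, 1.94, 2.53 and 2.34 at 14 days and 0.943, 1.21 and 1.09 at 21 days. It was high in every 14-day sample, and its 21-day samples lay on both sides of those of day 7. Its changes were 1.17 (SE 0.13, adjusted p = 4.1e-09), -1.07 (SE 0.13, adjusted p = 1.6e-08) and, over the whole course, 0.11 (SE 0.13, 95% interval -0.16 to 0.37, adjusted p = 0.44). This net change was called higher with Pdi alone (0.44, adjusted p = 0.0032) and with centring (0.95, adjusted p = 1.3e-07), and was -0.58 and called lower without any reference gene.

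Hsp70c had the widest course of the 18 genes. Its relative level was 1.02, 0.975 and 1.0 at 7 days, 0.264, 0.274 and 0.245 at 14 days and 0.0287, 0.0351 and 0.0347 at 21 days. Replicates were close to each other, and each day lay far below the one before. Hsp70c changed by -1.94 (SE 0.14, adjusted p = 1.4e-12) in the first step, by -2.99 (SE 0.14, adjusted p = 3.0e-17) in the second and by -4.93 (SE 0.14, adjusted p = 7.0e-23) from day 7 to day 21, and kept its calls under each of the 5 normalizers. Hsp70b came next. Its relative level was 1.03, 0.993 and 0.974 at 7 days, 0.508, 0.462 and 0.496 at 14 days and 0.108, 0.148 and 0.138 at 21 days. It, too, declined in 2 clear steps, with changes of -1.03 (SE 0.13, adjusted p = 4.1e-08), -1.91 (SE 0.13, adjusted p = 1.2e-13) and -2.94 (SE 0.13, adjusted p = 3.6e-18) over the whole course. For this gene the deposited cycles and the deposited relative expression differ from each other, as described below, and its course is that of the cycles only. Within samples, the log2 ratio of Hsp70a over Hsp70c was -0.056 ± 0.083 (SD, n = 3) at 7 days, 3.06 ± 0.20 at 14 days and 4.99 ± 0.069 at 21 days, a change that needs no reference gene.

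Both small Hsp genes fell in the last week, except that the fall of Hsp20b was not called when samples were centred on the 18 targets (-0.02, adjusted p = 0.84). Hsp20a had relative levels of 0.989, 1.12 and 0.892 at 7 days, 1.23, 1.12 and 1.18 at 14 days and 0.184, 0.253 and 0.258 at 21 days. The 14-day samples lay at or just above those of day 7, and all 21-day samples were far below. Its change of 0.24 at 14 against 7 days did not pass the test (SE 0.15, adjusted p = 0.15), whereas those of -2.37 (SE 0.15, adjusted p = 2.1e-14) at 21 against 14 days and -2.12 (SE 0.15, adjusted p = 2.0e-13) at 21 against 7 days did. The first step of Hsp20a was called higher with Pdi alone (0.62, adjusted p = 0.0004) and with centring (0.49, adjusted p = 0.00071). It was also called higher on linear levels (limma, adjusted p = 0.042), and lower without any reference gene (-0.57, adjusted p = 0.00018). Hsp20b ranged from 0.805 to 1.12 at 7 days, from 1.37 to 1.43 at 14 days and from 0.824 to 0.998 at 21 days. It rose by 0.51 (SE 0.14, adjusted p = 0.0017), a rise that turned to -0.31 without a reference gene, and fell by 0.62 (SE 0.14, adjusted p = 0.00014), which left a change of -0.12 (95% interval -0.40 to 0.17, adjusted p = 0.44) over the course. This net change was called lower with Sar1 alone (-0.45, adjusted p = 0.015) and without any reference gene (-0.80, adjusted p = 5.5e-06). With centring it was called higher (0.73, adjusted p = 3.6e-06). The log2 ratio of Hsp20a over Hsp20b was 1.99 ± 0.17 (SD, n = 3) at 7 days, 1.72 ± 0.068 at 14 days and -0.020 ± 0.33 at 21 days.

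Both chaperonin genes dipped at 14 days and rose again by 21 days. Cpn60a ranged from 0.793 to 1.24 at 7 days, from 0.617 to 0.677 at 14 days and from 1.03 to 1.17 at 21 days. Cpn60b ranged from 0.825 to 1.16 at 7 days, from 0.563 to 0.714 at 14 days and from 0.886 to 0.99 at 21 days. The falls at 14 days were 0.62 (SE 0.14, adjusted p = 0.00043) for Cpn60a and 0.61 (SE 0.15, adjusted p = 0.00062) for Cpn60b, and neither passed the test with Pdi alone (adjusted p of 0.15 and 0.16). The fall of Cpn60a was not called in the methods' test across days after adjustment (adjusted p = 0.061). The rises at 21 against 14 days were 0.78 (SE 0.14, adjusted p = 1.8e-05) and 0.51 (SE 0.15, adjusted p = 0.0022). At 21 against 7 days the changes were 0.16 (95% interval -0.14 to 0.45, adjusted p = 0.35) for Cpn60a, which was called without NO 7d replicate 1 (0.32, adjusted p = 0.048), and -0.10 (95% interval -0.40 to 0.21, adjusted p = 0.52) for Cpn60b.

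**Figure D2:**
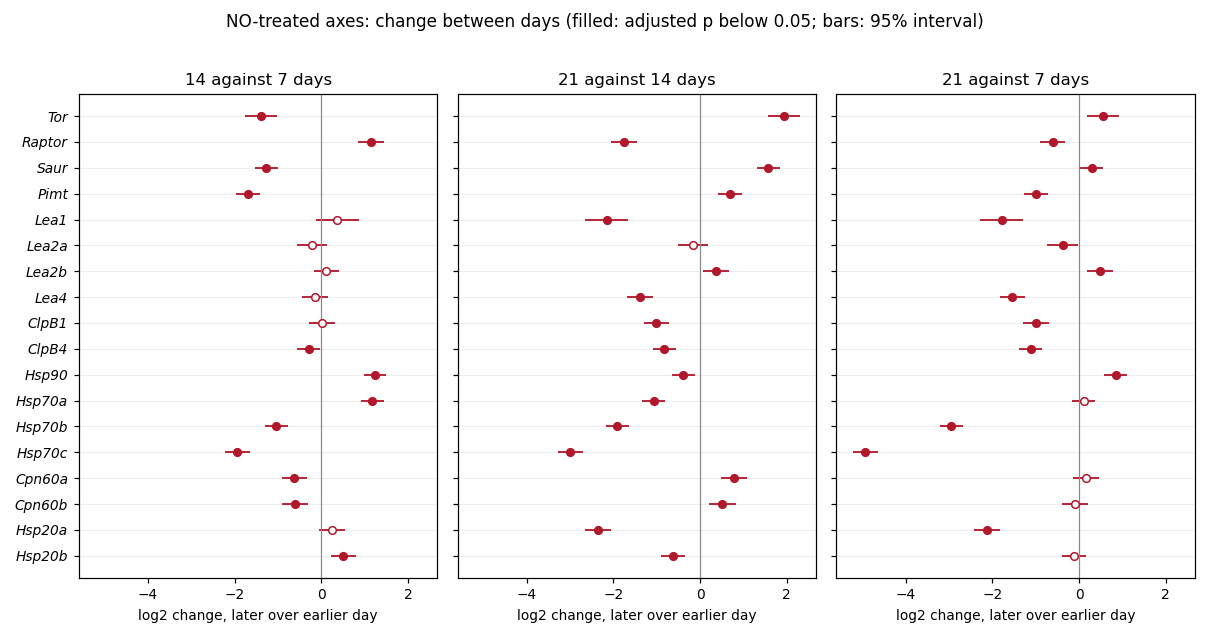
Log2 change (x axis, log2 scale) of each of the 18 genes between 2 days of aging in NO-treated axes, with the 95% interval of the limma fit (n = 3 a day) and filled points where the adjusted p is below 0.05. In the panel of 21 against 14 days 11 genes lie to the left of 0 with filled points and 6 to the right.

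Some calls depended on single samples. At 21 against 7 days, Tor lost its call on leaving out 7-day replicate 3 or 21-day replicate 2 (adjusted p = 0.071 each), Saur on leaving out 7-day replicate 2 or 3 or 21-day replicate 1 or 2 (adjusted p of 0.072 to 0.14), and Lea2a on leaving out 7-day replicate 1 or 3 or 21-day replicate 1 or 3 (adjusted p of 0.071 to 0.14), all of NO-treated axes. In the comparison of 21 with 14 days, Lea2b lost its call without 14-day replicate 2 (adjusted p = 0.093) or 21-day replicate 3 (adjusted p = 0.070).

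Each step was also computed with 4 other normalizers, and the plot of the changes under 5 normalizers shows how far each gene shifted. At 14 against 7 days the numbers of genes higher and lower, 4 and 8 with both reference genes, became 8 and 7 with samples centred on the mean of the 18 targets, 3 and 14 without any reference gene, 8 and 5 on the scale of Pdi only and 3 and 10 on that of Sar1 only. Called the same way under all 5 were the rises of Raptor, Hsp90 and Hsp70a and the falls of Tor, Saur, Pimt, Hsp70b and Hsp70c. The split of 6 and 11 at 21 against 14 days became 8 and 9 with centring and was the same under the remaining 3. Here all 6 rises and 9 of the 11 falls held under the 5 normalizers, with Hsp90 and Hsp20b as the exceptions. In the methods' test across days after adjustment, however, the rises of Pimt (adjusted p = 0.064), Lea2b (0.053) and Cpn60b (0.061) were not called. At 21 against 7 days the split of 4 and 10 became 9 and 6 with centring, 0 and 15 without any reference gene, 6 and 8 on the scale of Pdi and 1 and 12 on that of Sar1. None of the 4 higher calls held throughout, whereas the lower level of Lea1, Lea4, ClpB4, Hsp70b, Hsp70c and Hsp20a (6 of 10) did. The methods' test after adjustment did not call Tor, Raptor and Lea2a (adjusted p = 0.11 each) or Saur (adjusted p = 0.080) in this comparison. The median change of the 18 genes at 21 against 7 days was 0.35 with centring, -1.18 without any reference gene, -0.16 on the scale of Pdi and -0.83 on that of Sar1, against -0.50 with both reference genes, and at 14 against 7 days it was 0.07, -0.99, 0.20 and -0.55 in the same order, against -0.18.

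**Figure D3:**
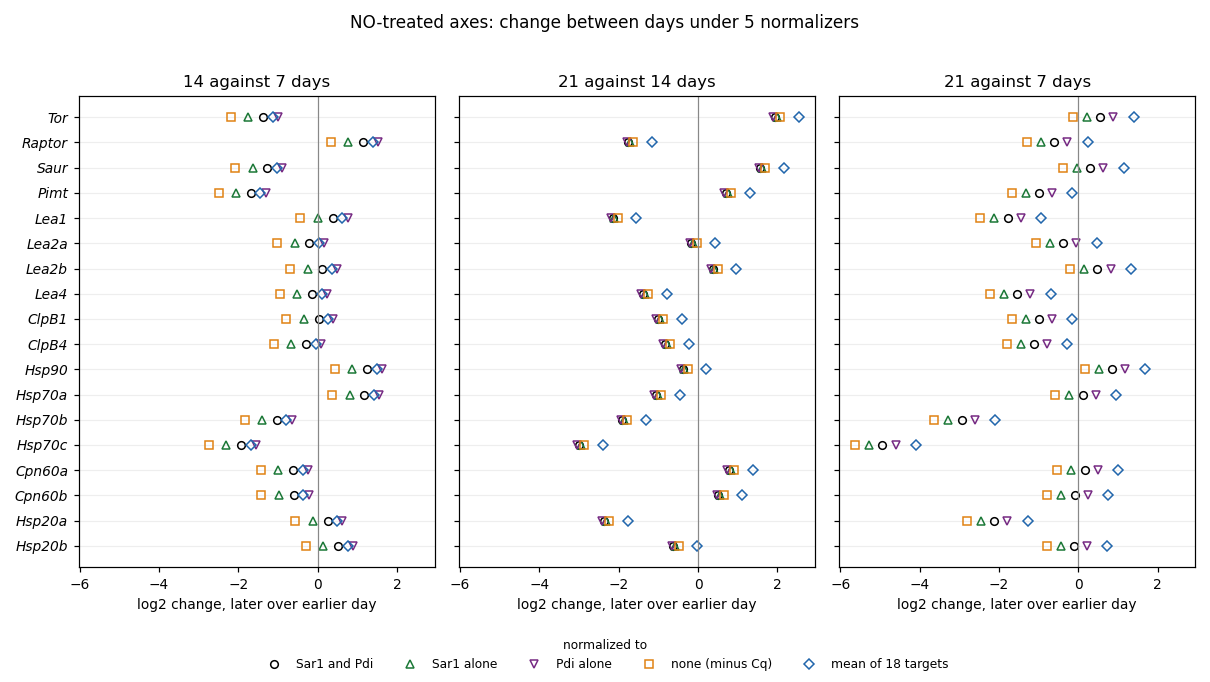
Log2 change (x axis, log2 scale) of the 18 genes between 2 days in NO-treated axes with levels normalized to Sar1 and Pdi, to either of them, to nothing and to the mean of the 18 targets, each symbol being the difference of 2 means of 3 samples. The symbols of a gene spread most in both panels with day 7, where the median change without a reference gene is -0.99 and -1.18.

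The course with NO was then set against the course of control axes, by testing the difference of the 2 log2 changes (change in NO-treated minus change in control axes) in the same fit. The difference passed the test for 11 of 18 genes (61.1%) at 14 against 7 days, 5 of them positive, for 9 (50%) at 21 against 14 days, 3 of them positive, and for 5 (27.8%) at 21 against 7 days, 1 of them positive. The negative differences numbered 6, 6 and 4. In the first comparison, positive and negative calls numbered 5 and 7 with centring, 5 and 7 without any reference gene, 7 and 3 on the scale of Pdi and 3 and 7 on that of Sar1. With the normalizers in the same order, they numbered 8 and 5, 4 and 6, 2 and 7, and 5 and 5 in the second comparison, and 6 and 2, 1 and 9, 1 and 4, and 0 and 3 in the third.

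Pimt ran in opposite directions with and without NO. Its change at 14 against 7 days was -1.69 in NO-treated axes and 1.19 (SE 0.14, adjusted p = 8.0e-09) in control axes, a difference of -2.88 (SE 0.19, adjusted p = 2.4e-13). On the scale of the 7-day NO-treated axes, its relative level was 0.31, 0.328 and 0.29 in the 14-day NO-treated samples, against 1.5, 1.7 and 1.77 in the 14-day control samples. In the second step the change was 0.70 with NO and -1.61 (SE 0.14, adjusted p = 2.8e-11) in control axes, a difference of 2.31 (SE 0.19, adjusted p = 1.4e-11). By 21 days the groups overlapped, at 0.413, 0.599 and 0.508 in NO-treated axes and 0.532, 0.538 and 0.55 in control axes. The difference over the whole course was -0.57 (SE 0.19, adjusted p = 0.028). It was not called with Sar1 alone (adjusted p = 0.089) or with centring (-0.19, adjusted p = 0.18), and the call was lost without NO 7d replicate 2 (adjusted p = 0.083), NO 21d replicate 1 (0.086), Control 7d replicate 3 (0.052) or Control 21d replicate 1 (0.050).

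Raptor differed from its control course at both steps. At 14 against 7 days it changed by 1.15 in NO-treated axes and by -0.33 (SE 0.15, adjusted p = 0.042) in control axes, a difference of 1.47 (SE 0.21, adjusted p = 4.6e-07). In the second step it changed by -1.76 with NO and by 0.11 (SE 0.15, adjusted p = 0.50) in control axes, a difference of -1.86 (SE 0.21, adjusted p = 4.9e-09). Control levels lay between 2.46 and 3.75 on the scale of the 7-day NO-treated axes at all 3 times. The 14-day NO-treated samples, at 2.47, 1.99 and 2.17, all lay below the 14-day control samples, at 2.77, 2.6 and 2.54. The highest of them passed only the lowest control sample, a 21-day one at 2.46. For Tor, whose dip at 14 days was seen in control axes as well (-1.26, SE 0.18, adjusted p = 3.8e-07), the difference was -0.12 (95% interval -0.64 to 0.40, adjusted p = 0.71) in the first step and 0.37 (95% interval -0.14 to 0.89, adjusted p = 0.23) in the second. That of the second step was called with Sar1 alone (0.61, adjusted p = 0.044) and with centring (0.84, adjusted p = 0.0008), and that of the whole course, 0.25 (adjusted p = 0.48), with centring (0.63, adjusted p = 0.014). On linear levels, in units of the 7-day NO-treated mean, both step differences of Tor passed the limma test with the opposite sign. They were 1.78 (adjusted p = 0.0052) in the first step and -2.26 (adjusted p = 0.00073) in the second. In these units the mean of Tor at 7, 14 and 21 days was 4.1, 1.7 and 5.04 in control axes. With NO it was 1.0, 0.386 and 1.47, so linear changes of Tor in control axes started from higher levels. Saur dipped in both, and further with NO, with differences of -0.80 (SE 0.18, adjusted p = 0.00049) and 1.25 (SE 0.18, adjusted p = 7.6e-07).

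Each of the 3 Hsp70 genes differed from its control course in at least 1 comparison of the cycles. Such differences were common, at 61.1%, 50% and 27.8% of the 18 genes in the 3 comparisons. Only Lea1, Lea2b, Lea4, Tor, Hsp90 and Hsp20b had none in the same fit. Hsp70c changed by -1.94 in NO-treated axes and by -4.64 (SE 0.14, adjusted p = 3.6e-22) in control axes at 14 against 7 days, and by -2.99 with NO and 1.68 (SE 0.14, adjusted p = 2.8e-11) in control axes at 21 against 14 days. The differences were 2.70 (SE 0.20, adjusted p = 1.0e-12) and -4.68 (SE 0.20, adjusted p = 2.4e-18), and the difference over the whole course was -1.98 (SE 0.20, adjusted p = 1.1e-09). Its relative level was 0.264, 0.274 and 0.245 in 14-day NO-treated samples, against 0.0227, 0.022 and 0.03 in 14-day control samples, and 0.0287, 0.0351 and 0.0347 in 21-day NO-treated samples, against 0.0819, 0.0771 and 0.0789 in 21-day control samples. The order of both groups thus turned between 14 and 21 days, without overlap on either day. Hsp70a rose at 14 days in both, and the difference in that step was 0.27 (95% interval -0.10 to 0.65, adjusted p = 0.18), called with Pdi alone (0.52, adjusted p = 0.018). At 21 against 14 days it changed by -1.07 with NO and by -0.07 (SE 0.13, adjusted p = 0.62) in control axes, a difference of -1.0 (SE 0.18, adjusted p = 2.3e-05), and over the whole course the difference was -0.73 (SE 0.18, adjusted p = 0.0028), which moved to -0.35 (adjusted p = 0.083) with centring.

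For Hsp70b the differences from the cycles were -0.91 (SE 0.18, adjusted p = 0.00011), -2.45 (SE 0.18, adjusted p = 1.8e-12) and -3.36 (SE 0.18, adjusted p = 1.7e-15) in the 3 comparisons. The deposited relative expression, in which each day is set to its own control and that scale cancels in a difference of this kind, gave -0.08, -0.10 and -0.18 for the same differences, with adjusted p of 0.65, 0.60 and 0.43. The deposited log2 ratio of NO-treated over control axes differed from that of the cycles by -0.65 at 7 days, 0.18 at 14 days and 2.53 at 21 days for this gene alone, and which of the 2 deposited forms holds the true course of Hsp70b cannot be told from the files. For 8 genes both forms differed by at most 0.0284 on the log2 scale (root mean square). For the other 9 (Tor, Raptor, the 4 Lea genes, Hsp90, Cpn60a and Cpn60b) they differed by 0.214 to 0.253, through a nearly common shift of the NO-treated over control ratio by 0.31 at 7 days, 0.09 at 14 days and 0.24 at 21 days, so the courses of these 9 rest on reference cycles from which their deposited ratio is not recovered.

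Hsp20a fell in the second step with NO and at both steps, mostly the first, in control axes. Its change at 14 against 7 days was 0.24 in NO-treated axes and -1.33 (SE 0.15, adjusted p = 6.7e-09) in control axes, a difference of 1.57 (SE 0.21, adjusted p = 2.2e-07). In the second step it was -2.37 with NO and -0.51 (SE 0.15, adjusted p = 0.0024) in control axes, a difference of -1.86 (SE 0.21, adjusted p = 5.4e-09). Over the whole course the difference was -0.28 (95% interval -0.71 to 0.14, adjusted p = 0.31), which was called without any reference gene (-0.46, adjusted p = 0.025). At 14 days the relative level was 1.23, 1.12 and 1.18 in NO-treated samples, against 0.513, 0.408 and 0.48 in control samples.

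**Figure D4:**
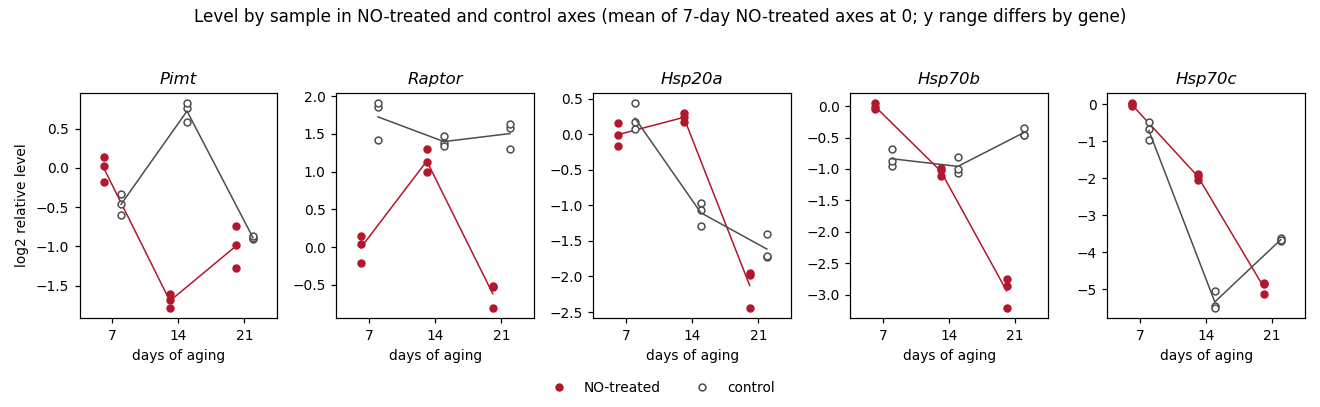
Log2 relative level (y axes, log2 scale, range differing by gene) of 5 genes by days of aging (x axis) in NO-treated (filled, left) and control axes (open, right), with 3 samples a group, lines through the group means and the 7-day NO-treated mean at 0. Pimt is lowest at 14 days with NO and highest at 14 days without, and Hsp70c with NO lies above the control at 14 days and below it at 21 days.

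The remaining differences were smaller. The fall of the chaperonins from 7 to 14 days was smaller with NO, with differences of 0.66 (SE 0.20, adjusted p = 0.0064) for Cpn60a and 0.78 (SE 0.21, adjusted p = 0.0026) for Cpn60b. The mean relative level of Cpn60a was 1.0 with NO and 1.06 in control axes at 7 days, and 0.641 and 0.431 at 14 days. For Cpn60b the means were 1.0 with NO and 1.63 in control axes at 7 days. At 14 days they were 0.652 and 0.62, and the samples of both groups overlapped. The later rise of Cpn60a differed by -0.59 (SE 0.20, adjusted p = 0.014), a call that was lost with Sar1 alone (-0.36, adjusted p = 0.23), with centring (-0.13, adjusted p = 0.40) and on linear levels (adjusted p = 0.21). ClpB1 and ClpB4, which rose in control axes at 14 days by 0.54 (SE 0.14, adjusted p = 0.0018) and 0.30 (SE 0.13, adjusted p = 0.037), differed by -0.52 (SE 0.20, adjusted p = 0.028) and -0.59 (SE 0.18, adjusted p = 0.0064). Without a reference gene both control rises turned to falls. From 7 to 14 days the mean control Cq went from 23.97 to 24.15 for ClpB1 and from 24.82 to 25.24 for ClpB4. That of both reference genes went from 23.52 to 24.24. Lea2a differed by -0.61 (SE 0.24, adjusted p = 0.028) in the first step and 0.73 (SE 0.24, adjusted p = 0.011) in the second, and Cpn60b by 0.57 (SE 0.21, adjusted p = 0.040) over the whole course. With Pdi alone the differences of Lea2a at both steps and the first-step ones of ClpB1 and ClpB4 were not called, and with Sar1 alone neither were the first-step differences of the chaperonins and that of Cpn60b over the course. The call of ClpB1 was lost without NO 7d replicate 1, NO 14d replicate 3, Control 7d replicate 1 or Control 14d replicate 2 (adjusted p of 0.051 to 0.13), that of Lea2a in the first step without NO 7d replicate 1, NO 14d replicate 3, Control 7d replicate 2 or Control 14d replicate 3 (0.086 to 0.13) and in the second without Control 14d replicate 3 (0.060), and that of Cpn60b without NO 7d replicate 3, any NO 21d sample, Control 7d replicate 1 or 3, or Control 21d replicate 1 or 3 (0.053 to 0.12). Lea1, Lea2b, Lea4, Tor, Hsp90 and Hsp20b passed the test of the difference at none of the 3 comparisons in the fit of log2 levels with both reference genes. Their values ran from -0.58 for Lea1 at 21 against 14 days to 0.50 for Lea1 at 14 against 7 days. The first-step difference of Lea4, -0.40 (adjusted p = 0.086), was called with Sar1 alone (-0.65, adjusted p = 0.018), without any reference gene (-0.49, adjusted p = 0.010), with centring (-0.49, adjusted p = 0.0057) and in the deposited relative expression (-0.58, adjusted p = 0.0073). Hsp90 was called with Pdi alone in the first step (0.59, adjusted p = 0.011) and with centring over the course (0.67, adjusted p = 8.9e-05), and Lea1 with Pdi alone in the second step (-0.82, adjusted p = 0.040). The second-step difference of ClpB4 was 0.42 (adjusted p = 0.053). It was called with Sar1 alone (0.66, adjusted p = 0.015), without any reference gene (0.33, adjusted p = 0.022) and with centring (0.88, adjusted p = 2.3e-06), but not with Pdi alone. It was also called without moderation (adjusted p = 0.034) and in the deposited relative expression (0.42, adjusted p = 0.039). Calls were gained without single samples for Lea1 and Hsp90 in the first step (Control 7d replicate 2, adjusted p of 0.014 and 0.036), for Lea4 in the first step (NO 7d or Control 7d replicate 3, 0.039 and 0.0497) and over the course (NO 21d replicate 2, 0.040), for Lea1 in the second step (NO 21d replicate 3, 0.019), for ClpB4 in the second step (NO 7d replicate 3, NO 21d replicate 1 or 3, Control 7d replicate 1 or 2 or Control 14d replicate 2, 0.040 to 0.048) and for Saur over the course (NO 7d replicate 1, Control 7d replicate 2 or Control 21d replicate 3, 0.028 to 0.049).

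**Figure D5:**
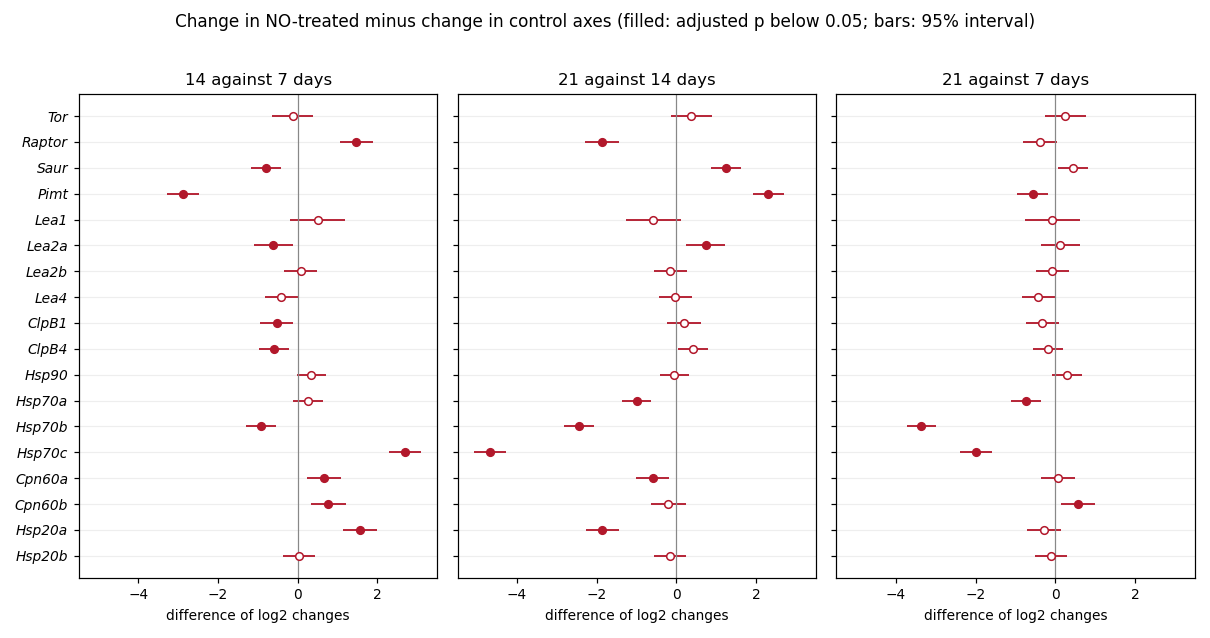
Change between 2 days in NO-treated minus that in control axes (x axis, difference of log2 changes) for the 18 genes, with the 95% interval of the limma fit and filled points where the adjusted p is below 0.05. Hsp70c lies at 2.70, -4.68 and -1.98 in the 3 panels and Pimt at -2.88, 2.31 and -0.57.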

How the data were processed

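Embryonic axes of aged apple seeds were assayed by RT-qPCR in 6 groups of 3 biological replicates, each run in 3 technical repetitions per the labels. The authors deposited Cq values that had not been normalized, 1 per gene and sample, and relative expression, a ratio to 2 reference genes that the authors scaled so that the control of each day averages about 1. That ratio cannot be compared across days and was used only for differences of NO-treated and control courses. A deposited set of 3 columns of control values scaled to day 7 was not used here, nor were the authors' own fold changes and p-values. Primer efficiencies were not given in the sources used here, so 1 cycle was taken as a factor of 2.

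Levels were the mean Cq of Sar1 and Pdi minus the target Cq. All 18 samples entered 1 limma fit (limma 3.58.1, R 4.3.3) of 6 group means with 12 residual degrees of freedom and no block, with Benjamini-Hochberg adjustment across the 18 genes of each comparison and a threshold of 0.05. The script was tested on simulated data. All 18 targets are named, and values in every sample are printed for genes called with an absolute log2 change of at least 1 and for Hsp70b. Members, gene groups and tests were chosen with earlier results of these data known. Alternatives were 4 other normalizers, a replicate block, NO-treated samples only, no moderation, linear levels, the methods' test across days, each sample left out and, chosen after seeing the data, the deposited ratio. The methods' test was Tukey's on linear levels of NO-treated axes, taken with and without an added Benjamini-Hochberg adjustment. The number of samples limits the precision.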

Additional observations from a re-analysis of the deposited data

Results flagged for a closer look

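The change between 2 days of aging differed between NO-treated and control axes, by the limma test of the difference itself, in the cases that follow (log2 change in NO-treated minus that in control axes). At 14 against 7 days these were Hsp70c (2.70), Hsp20a (1.57), Raptor (1.47), Cpn60b (0.78) and Cpn60a (0.66) on the positive side and Pimt (-2.88), Hsp70b (-0.91), Saur (-0.80), Lea2a (-0.61), ClpB4 (-0.59) and ClpB1 (-0.52) on the negative side. At 21 against 14 days they were Pimt (2.31), Saur (1.25) and Lea2a (0.73), and Hsp70c (-4.68), Hsp70b (-2.45), Raptor (-1.86), Hsp20a (-1.86), Hsp70a (-1.0) and Cpn60a (-0.59). At 21 against 7 days they were Cpn60b (0.57), Hsp70b (-3.36), Hsp70c (-1.98), Hsp70a (-0.73) and Pimt (-0.57). The 3 values of Hsp70b came from the cycles and were not called in the deposited relative expression.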

How the results depend on the processing

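A direction was counted as turned where the value passed the test in at least 1 of both settings. Why values moved was not tested. At 14 against 7 days in NO-treated axes, genes higher numbered 8 when centred on the 18 targets and 8 with Pdi alone, and genes lower 14 without a reference gene and 5 with Pdi alone. At 21 against 14 days genes higher numbered 3 in the methods' test across days after adjustment. At 21 against 7 days genes higher numbered 1 with Sar1 alone, 0 without a reference gene, 9 when centred and 2 in the methods' adjusted test, and genes lower 6 when centred. Positive differences between NO-treated and control courses numbered 3 with Sar1 alone at 14 against 7 days, where negative ones numbered 3 with Pdi alone. Positive differences at 21 against 14 days numbered 5 with Sar1 alone and 8 when centred. At 21 against 7 days positive differences numbered 0 with Sar1 alone, 6 when centred, 2 on linear levels and 0 in the deposited relative expression, an alternative chosen after seeing the data, and negative ones 9 without a reference gene and 2 when centred.

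Without a reference gene the changes that turned were, at 14 against 7 days, Lea2b (-0.70), ClpB1 (-0.80), Hsp20a (-0.57) and Hsp20b (-0.31) and, at 21 against 7 days, Tor (-0.13), Saur (-0.39), Lea2b (-0.20), Hsp70a (-0.58) and Cpn60a (-0.53). Centred on the targets, those at 21 against 14 days were Lea2a (0.43) and Hsp90 (0.21), and those at 21 against 7 days Raptor (0.23), Lea2a (0.46), Cpn60b (0.75) and Hsp20b (0.73). With Pdi alone ClpB4 at 14 against 7 days turned (0.087), and with Sar1 alone Saur at 21 against 7 days (-0.035). Of the differences between courses, Lea4 (0.44) and Hsp90 (0.41) at 21 against 14 days turned when centred. On linear levels, in units of the 7-day NO-treated mean, Tor turned at 14 against 7 days (1.78) and at 21 against 14 days (-2.26), and Hsp70c at 14 against 7 days (-0.14).

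Replicate numbers are shared by the groups, but same-numbered NO-treated samples of 2 days did not all deviate together (r over 0.1 in 7 of 9 pairs, lowest -0.17, median 0.27). Each of the 9 NO-treated samples was also set against both other days. In 15 of these 18 cases it correlated best with its own number, a hint from the data and not from the design. With the replicate block, genes higher and lower in NO-treated axes numbered 4 and 7 at 14 against 7 days, 6 and 11 at 21 against 14 days and 3 and 10 at 21 against 7 days. ClpB4 in the first (adjusted p = 0.070) and Saur in the third (adjusted p = 0.051) lost their calls, and the block changed no call among the 54 differences.

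With each of the 18 samples left out in turn, genes higher and lower numbered 4 and 7 to 8 at 14 against 7 days, 5 to 6 and 11 at 21 against 14 days, and 2 to 5 and 9 to 10 at 21 against 7 days. Positive and negative differences numbered 5 to 7 and 4 to 7, 2 to 4 and 6 to 7, and 0 to 2 and 3 to 5 in the same comparisons.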
